A study of Mus musculus with 6 samples.

Results

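The genes described here are 36 mouse genes of antigen presentation and of the molecules with which a cell restrains immune attack. They comprise 9 major histocompatibility complex (MHC) class I molecules, 12 genes of class I peptide processing and loading, 2 transactivators, 6 class II genes and 7 checkpoint and costimulatory ligands. They were chosen by name, and their probes were found through the RefSeq accession each probe carries. Of the 36 genes, 33 had a probe and 32 were tested, among 18368 genes tested in all. H2-Q6, H2-T22 and Psme2 had no probe matched by accession and were not analysed here. Cd86 had 2 probes, and neither was well above background on any of the 6 arrays.

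Expression was measured in melanocyte stem cells, the reserve of pigment cell precursors in the hair follicle, sorted from the skin of male mice as GFP-positive cells of low side scatter. One group of 3 samples came from K14-SCF Tg mice, which express stem cell factor (the Kit ligand) in keratinocytes from the keratin 14 promoter. The other 3 samples came from WT mice. The labels name no mutation or agent beyond this, and the age of the mice, the source of the GFP and the number of mice per sample are not given in the sources used here. Each sample was hybridised to its own one-colour Agilent array. The labels do not say that replicates came from separate mice, so the spread behind every p-value below may be technical.

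Almost all nucleated cells display peptides of their own proteins on MHC class I molecules. The proteasome cuts the proteins, the Tap transporter carries the peptides into the endoplasmic reticulum, and chaperones load them onto a heavy chain paired with beta-2 microglobulin. CD8 T cells read these peptides, whereas class II molecules, mostly on professional antigen-presenting cells, are read by CD4 T cells. The growing hair follicle is known as a site of immune privilege, where class I molecules are low and inhibitory ligands are present.

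Levels below are log2 of a probe's signal over the 75th percentile of its array, so 0 is the 75th percentile. Levels of different probes are not compared, because probes differ in affinity. A fold change is the difference of the mean levels, K14-SCF Tg minus WT, and a gene was called at a limma adjusted p under 0.05. Between 78.4% and 87.1% of the probes were well above background on each array, so detection alone says little, and no probe was saturated. The number of arrays limits the precision. WT replicate 1 lay on a slide and in a scan of its own, and the other 5 arrays shared a second slide. Values with the slide as a block equal those without WT replicate 1. They are given for some of the results they move, beside them or in the last section.

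The label was set beside markers of its cell type, with the limit that most probes pass detection. Of 14 melanocyte markers, 13 were tested and all 13 were well above background on all 6 arrays, while Oca2 was so on none. Dct, an enzyme of melanin synthesis, and Mlana, a melanosome protein, had fold changes of 0.10 and 0.06. Of the 13, 5 were positive and 8 negative, and 0 were called. Ednrb, the endothelin receptor of melanocytes, had a fold change of -0.65 with the groups apart and an adjusted p of 0.823, and Kit of -0.46. The summed linear level of the 13 markers was 293.5 to 348.2 in K14-SCF Tg samples and 307.9 to 393.6 in WT samples.

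No tested gene of the set passed the threshold in either direction. Of the 32 genes, 16 had a positive and 16 a negative fold change, with a median of 0.010, against -0.01 over all 18368 genes. None of the 32 was called higher and none lower in K14-SCF Tg. Over all genes 1 was called higher, which is 0.00544%, and 0 were called lower, which is 0.0%. The 1 gene was Hpse, which encodes heparanase and is no member of the set. Its probe was well above background in 3 of 3 K14-SCF Tg samples and in 0 of 3 WT samples. At an unadjusted limma p under 0.05, 0 of the 32 were higher and 1 was lower, against 2.85% of all genes higher and 2.56% lower. The groups did not overlap for 1 of the 32, which was lower in K14-SCF Tg on every array. Over all genes, all K14-SCF Tg samples were above all WT samples for 5.13% and below them for 5.41%. The shares among the members are thus near the background.

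**Figure D1:**
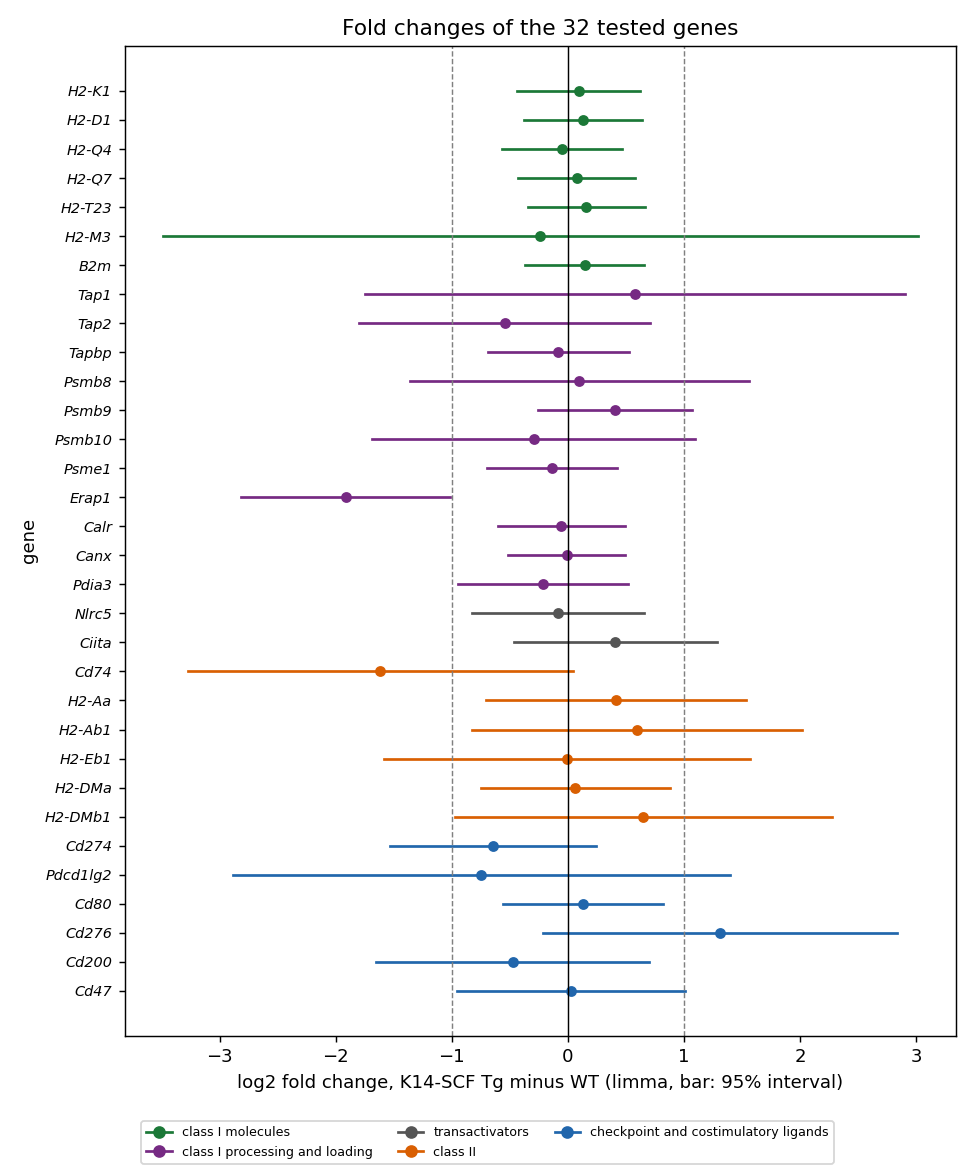
Log2 fold change of each of the 32 tested genes, K14-SCF Tg minus WT (x axis), by gene (y axis) and coloured by role. Points are limma estimates over 3 samples per genotype, bars their 95% intervals, and dashed lines mark a change of 1 on the log2 scale. The interval of Erap1 alone does not cross 0, and no adjusted p was under 0.05.

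The promoters of 5 loci are printed first: B2m, H2-K1 and H2-D1 as class I molecules, Tap1 for the start region it shares with Psmb9, and Erap1 as the member whose groups did not overlap. Each window runs from 250 bases before to 50 bases after a transcript start in RefSeq, build GRCm38.p6, 5′ to 3′ on the gene's strand. Of the 36 genes, 30 had a window in the RefSeq table; Cd74, Cd86, Ciita, H2-Ab1, Nlrc5 and Tap2 had none there. Capitals mark 4 motifs searched on both strands: GAAANNGAAA (the core of the interferon-stimulated response element), GGGATTCCC (the kappa B site of class I genes), CCAAT (the CCAAT box) and GGGCGG (the GC box). No 2 matches overlap in the windows printed, and a match is a description of letters, not of a bound site. The search took exact letters, so variant forms of a motif were neither marked nor counted. A window without a match, such as that of H2-K1 or H2-D1 for GAAANNGAAA, may hold a variant. GGGATTCCC is named for class I genes, which are close paralogs, so its matches among them are foreseeable and not independent. The windows lie at chr2:122147437-122147736 (B2m, plus strand), chr17:34000298-34000597 (H2-K1, minus strand), chr17:35262844-35263143 (H2-D1, plus strand), chr17:34187306-34187605 (Tap1, plus strand) and chr13:74639603-74639902 (Erap1, plus strand).
B2m: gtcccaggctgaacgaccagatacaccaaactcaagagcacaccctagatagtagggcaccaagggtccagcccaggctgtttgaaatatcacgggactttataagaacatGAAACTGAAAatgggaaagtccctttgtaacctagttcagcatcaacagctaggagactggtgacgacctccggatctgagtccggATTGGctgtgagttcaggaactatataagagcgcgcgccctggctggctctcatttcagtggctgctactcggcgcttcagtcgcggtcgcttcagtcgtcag
H2-K1: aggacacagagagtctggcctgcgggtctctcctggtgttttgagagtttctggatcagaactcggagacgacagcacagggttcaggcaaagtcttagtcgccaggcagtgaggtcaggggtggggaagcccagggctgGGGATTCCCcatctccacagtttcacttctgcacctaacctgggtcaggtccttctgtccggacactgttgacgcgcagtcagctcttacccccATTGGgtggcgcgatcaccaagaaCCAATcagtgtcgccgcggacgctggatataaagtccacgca
H2-D1: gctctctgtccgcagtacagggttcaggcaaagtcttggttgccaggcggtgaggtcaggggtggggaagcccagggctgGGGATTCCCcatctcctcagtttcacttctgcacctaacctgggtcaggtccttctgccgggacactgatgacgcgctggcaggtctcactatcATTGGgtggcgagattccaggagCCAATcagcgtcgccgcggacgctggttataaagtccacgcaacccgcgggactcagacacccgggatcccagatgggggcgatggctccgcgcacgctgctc
Tap1: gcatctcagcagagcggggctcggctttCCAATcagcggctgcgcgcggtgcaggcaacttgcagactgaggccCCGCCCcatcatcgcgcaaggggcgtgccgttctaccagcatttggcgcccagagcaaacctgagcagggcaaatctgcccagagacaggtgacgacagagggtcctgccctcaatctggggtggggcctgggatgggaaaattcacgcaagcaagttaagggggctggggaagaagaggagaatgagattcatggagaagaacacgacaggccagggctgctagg
Erap1: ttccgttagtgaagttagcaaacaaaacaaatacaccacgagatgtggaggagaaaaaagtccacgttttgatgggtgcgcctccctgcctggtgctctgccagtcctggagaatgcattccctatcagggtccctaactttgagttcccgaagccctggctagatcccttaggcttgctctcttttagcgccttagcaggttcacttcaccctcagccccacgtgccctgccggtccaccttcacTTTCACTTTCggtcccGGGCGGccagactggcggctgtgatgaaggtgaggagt
GAAANNGAAA was in the windows of 5 of the 30 genes, B2m, Erap1, H2-T22, H2-T23 and Psme1, and in 3.44% of all 32851 windows. GGGATTCCC was also in 5 of the 30, H2-D1, H2-K1, H2-Q6, H2-Q7 and Pdcd1lg2, the last of which encodes PD-L2, and in 0.35% of all windows. The H2-K1 and H2-D1 windows both hold it, with CCAAT boxes downstream. CCAAT was in 20 of the 30 genes and in 37.4% of all windows, and GGGCGG in 14 genes and 35.7% of all windows. A gene was counted where any of its windows held the motif, while the percentages count windows, so the units differ. Tap1 and the proteasome gene Psmb9 lie head to head: their windows share 275 bases on opposite strands, and the transcript starts are 226 bases apart.

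Class I molecules were measured closely and did not separate the genotypes. They are the heavy chains that hold peptide, plus B2m, the light chain that stabilises them. B2m was at 4.82, 4.92 and 4.78 in K14-SCF Tg samples and at 4.61, 4.64 and 4.84 in WT samples. The highest WT sample lay among the K14-SCF Tg samples, so the groups overlapped. The fold change of B2m was 0.14 with a standard error (SE) of 0.21, a 95% interval of -0.37 to 0.65 and an adjusted p of 0.990.

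H2-K1 and H2-D1 encode the classical heavy chains that present peptides to CD8 T cells. H2-K1 was at 5.32, 5.43 and 5.37 in K14-SCF Tg samples and at 5.07, 5.36 and 5.42 in WT samples. The lowest of the 6 was WT replicate 1, and the other 5 lay close together. Its fold change was 0.09 (SE 0.22, interval -0.44 to 0.62), and -0.015 with the slide as a block. H2-D1 was at 5.74, 5.61 and 5.49 in K14-SCF Tg samples and at 5.40, 5.51 and 5.55 in WT samples, and again the groups overlapped. Its fold change was 0.13 (SE 0.21, interval -0.38 to 0.64).

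The nonclassical heavy chains also overlapped between the genotypes. H2-Q4 averaged 7.02 ± 0.07 in K14-SCF Tg samples and 7.07 ± 0.14 in WT samples (SD, n = 3 each). H2-Q7 averaged 5.38 ± 0.04 in K14-SCF Tg samples and 5.30 ± 0.13 in WT samples (SD, n = 3 each). H2-T23, which encodes Qa-1, a ligand of the inhibitory NKG2A receptor of natural killer cells, averaged 4.30 ± 0.08 in K14-SCF Tg samples and 4.14 ± 0.09 in WT samples (SD, n = 3 each). For these 3 genes the groups overlapped and the fold changes were -0.05, 0.08 and 0.16. H2-M3, which presents N-formylated peptides, was at -2.43, -1.85 and -6.21 in K14-SCF Tg samples and at -4.66, -1.82 and -3.29 in WT samples. It was well above background in 2 of 3 K14-SCF Tg samples and 3 of 3 WT samples, and its interval of -3.49 to 3.01 is too wide to bound a change. Its fold change was -0.24, and -0.94 with the slide as a block. Class I genes are close paralogs, the probe sequences were not used here, and a probe may read more than 1 of them.

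The 7 class I molecules had a median fold change of 0.09, against -0.01 over all genes, and of 0.015 with the slide as a block. Of their intervals 6, all but that of H2-M3, lay within 1 log2 unit of 0, which is 85.7% of the 7, against 32.2% of all genes tested. Of the 7, 6 were among the brightest 25% of genes, among which 60% had such an interval. A doubling or a halving of these 6 signals thus lies outside their 95% intervals.

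**Figure D2:**
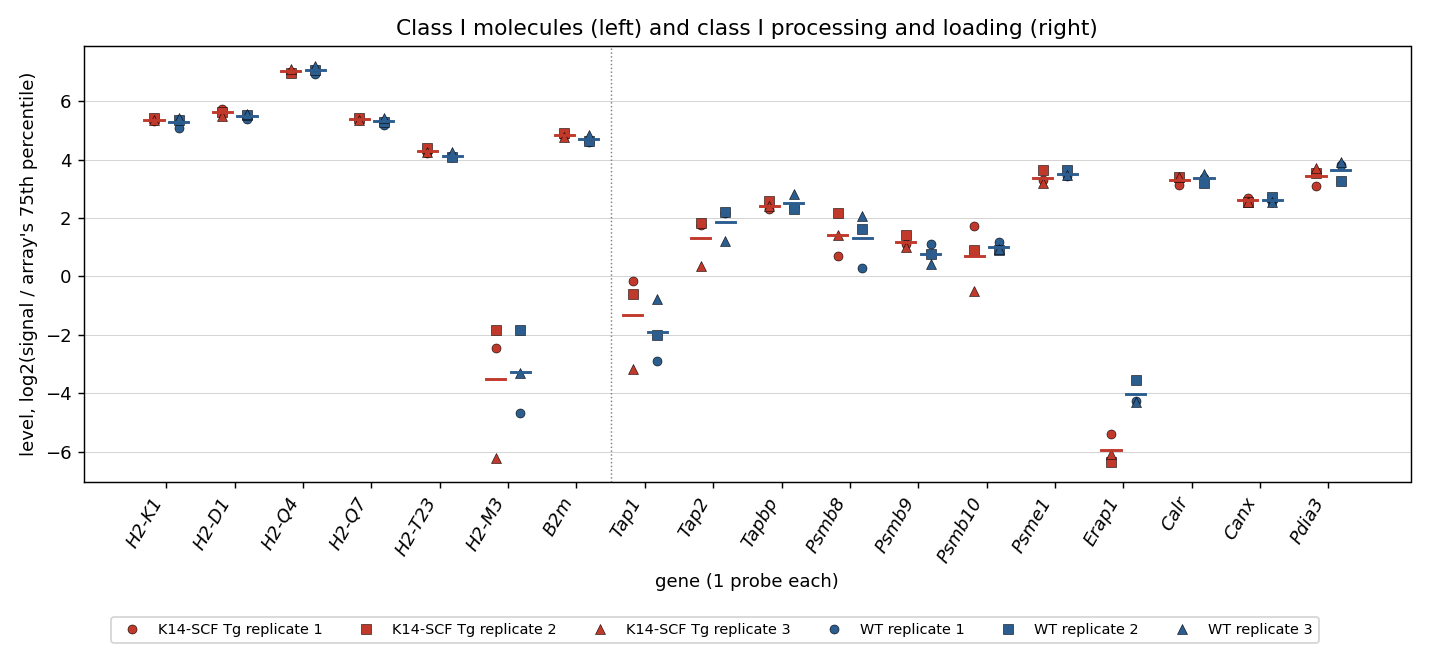
Level of each class I gene (left of the dotted line) and each processing and loading gene (right), as log2 of signal over the array's 75th percentile (y axis). Each point is 1 sample, K14-SCF Tg in red left of WT in blue, and bars are means of 3. The class I molecules other than H2-M3 cluster tightly, and only Erap1 separates the genotypes.

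Among the processing and loading genes, Erap1 was the gene with the smallest p. It encodes the aminopeptidase that trims peptides in the endoplasmic reticulum to the length class I molecules hold. Erap1 was at -5.39, -6.34 and -6.08 in K14-SCF Tg samples and at -4.26, -3.53 and -4.29 in WT samples. Every K14-SCF Tg sample lay below every WT sample, but the probe was dim. It was well above background in 1 of 3 K14-SCF Tg samples and in 3 of 3 WT samples. The fold change was -1.91 (SE 0.37, interval -2.81 to -1.01), an estimate that rests on K14-SCF Tg signals mostly near background. Its limma p was 0.00207 unadjusted and 0.542 after adjustment over all probes, so it was not called. With the slide as a block the fold change was -2.03 with an adjusted p of 0.609. Over 16 alternatives it ran between -2.18 and -0.80, with adjusted p between 0.509 and 0.776. The value nearest 0 came with normexp on median signals together with quantile normalization.

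The Tap transporter genes varied widely between replicates. Tap1 was at -0.15, -0.62 and -3.17 in K14-SCF Tg samples and at -2.91, -1.998 and -0.76 in WT samples. Both groups spanned over 2 log2 units, and the fold change was 0.58 (SE 0.95, interval -1.75 to 2.90). Without K14-SCF Tg replicate 3 it was 1.51, and without replicate 1 of that group -0.0060. With the slide as a block it was 0.067, and within slide row 1 it was 2.07. Tap2 was at 1.78, 1.81 and 0.36 in K14-SCF Tg samples and at 2.17, 2.19 and 1.22 in WT samples. In each genotype replicate 3, the array in the lower slide row, was the lowest, and the fold change of Tap2 was -0.55 (SE 0.51). It was -0.067 without K14-SCF Tg replicate 3 and -0.87 without WT replicate 3. Tapbp, tapasin, which bridges the transporter to class I molecules, averaged 2.43 ± 0.15 in K14-SCF Tg samples and 2.51 ± 0.28 in WT samples (SD, n = 3 each).

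Psmb8, Psmb9 and Psmb10 encode the catalytic subunits that interferon exchanges into the immunoproteasome. Psmb9 was at 1.11, 1.41 and 1.02 in K14-SCF Tg samples and at 1.104, 0.77 and 0.44 in WT samples. WT replicate 1 lay among the K14-SCF Tg samples. The fold change of Psmb9 was 0.41 (SE 0.27, interval -0.26 to 1.07, adjusted p 0.962), and 0.57 with the slide as a block (adjusted p 0.928). Psmb8 was at 0.70, 2.16 and 1.41 in K14-SCF Tg samples and at 0.28, 1.62 and 2.07 in WT samples, with a fold change of 0.10 (SE 0.60). With the slide as a block the fold change of Psmb8 was -0.42. Psmb10 was at 1.71, 0.89 and -0.48 in K14-SCF Tg samples and at 1.17, 0.90 and 0.93 in WT samples, with a fold change of -0.29 (SE 0.57). The groups overlapped for all 3 subunits. Psme1, a subunit of the proteasome activator PA28, had a fold change of -0.14 (SE 0.23).

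The chaperones of the endoplasmic reticulum showed no called difference. Calr, calreticulin, had a fold change of -0.06 (SE 0.22), and Canx, calnexin, of -0.01 (SE 0.21). Pdia3, a disulfide isomerase of the loading complex, had a fold change of -0.21 (SE 0.30). The groups overlapped for all 3. Over the 11 processing and loading genes the median fold change was -0.08, with 3 positive and 8 negative, and -0.15 with the slide as a block.

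The 2 transactivators showed no called difference. Nlrc5 drives class I genes, and its brighter probe was at 0.64, -0.18 and 0.11 in K14-SCF Tg samples and at 0.38, 0.43 and 0.01 in WT samples. That probe had a fold change of -0.09 (SE 0.30). A second, dimmer Nlrc5 probe was at -1.97, -2.06 and -2.36 in K14-SCF Tg samples and at -1.20, -1.68 and -1.24 in WT samples, without overlap. Its fold change was -0.76 (SE 0.25, adjusted p 0.845), so the 2 probes of the gene disagree in size. Ciita, the master regulator of class II genes, was at 2.80, 2.79 and 2.91 in K14-SCF Tg samples and at 1.71, 2.71 and 2.85 in WT samples. Its fold change of 0.41 (SE 0.36) was 0.05 without WT replicate 1.

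**Figure D3:**
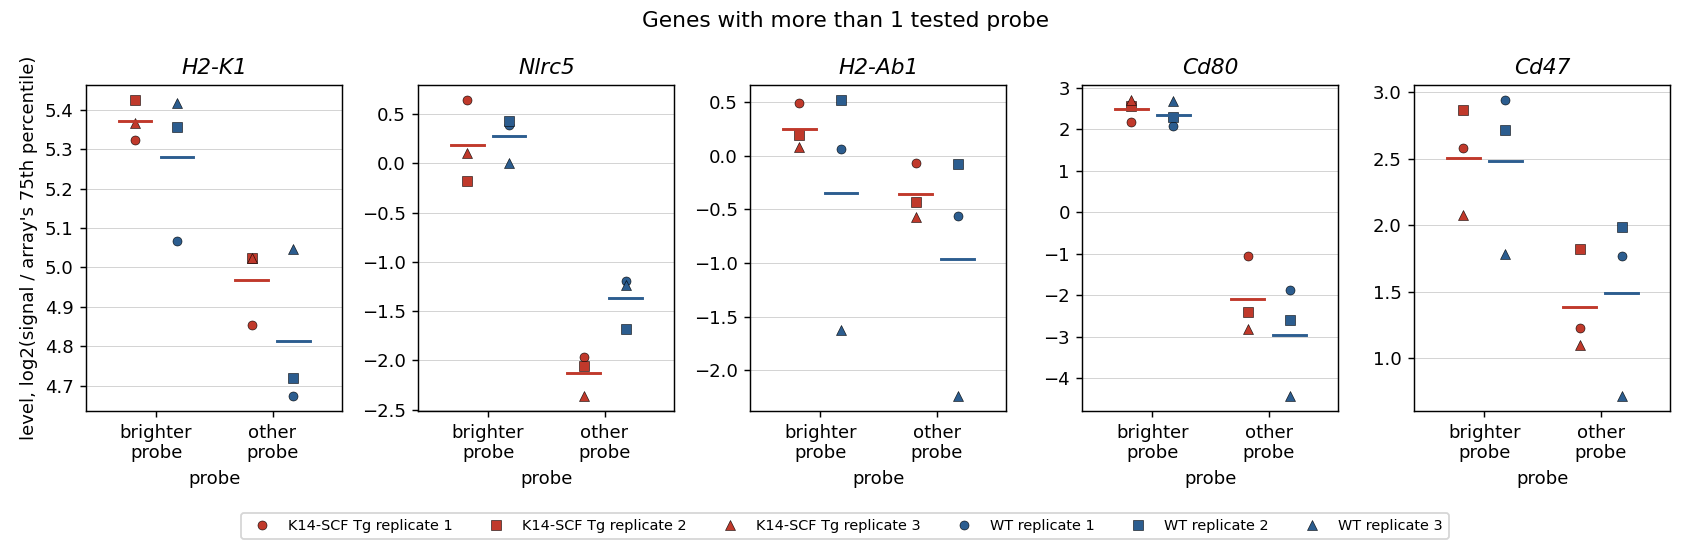
Levels at both tested probes of 5 genes, as log2 of signal over the array's 75th percentile (y axes differ by gene), in K14-SCF Tg (red, left) and WT (blue, right) samples, with means of 3 as bars. The dimmer Nlrc5 probe separates the genotypes and the brighter one does not.

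Class II genes had the highest median spread of the 5 roles, although H2-M3, Tap1 and Pdcd1lg2 each varied more than any class II gene. Cd74 encodes the invariant chain, which guides class II molecules to the compartment where they take up peptide. It was at -1.27, -0.72 and -0.44 in K14-SCF Tg samples and at -0.59, 1.97 and 1.03 in WT samples. WT replicates 2 and 3 lay above all K14-SCF Tg samples, and WT replicate 1 lay among them. The fold change was -1.61 (SE 0.68, interval -3.27 to 0.04), with an adjusted p of 0.918. With the slide as a block it was -2.31 with an adjusted p of 0.574, and without WT replicate 2 it was -1.03.

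Of the other 5 class II genes, 4 had a positive fold change, and none was called. H2-Aa, the I-A alpha chain, was at -3.53, -1.97 and -2.87 in K14-SCF Tg samples and at -2.78, -3.39 and -3.45 in WT samples, with a fold change of 0.41 (SE 0.45). Without K14-SCF Tg replicate 2 it was 0.0056. H2-Ab1, the I-A beta chain, was at 0.49, 0.19 and 0.08 in K14-SCF Tg samples and at 0.07, 0.52 and -1.62 in WT samples. WT replicate 3 was far below the other 5, and both H2-Ab1 probes gave a fold change of 0.60. Without WT replicate 3 the value at the brighter probe was -0.042. H2-Eb1, the I-E beta chain, had a fold change of -0.0058 (SE 0.64), and 0.54 with the slide as a block. H2-DMa and H2-DMb1, the pair that exchanges the invariant chain remnant for peptide, had fold changes of 0.06 (SE 0.33) and 0.65 (SE 0.66). Over the 6 class II genes the median was 0.24, and 0.59 with the slide as a block. In bulk samples, fewer cells of a type and less RNA per cell cannot be told apart.

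Markers of the cells that normally carry class II were set beside these values. All 10 leukocyte markers were tested, and 8 were well above background on all 6 arrays. Their summed linear level was 5.15 to 5.28 in K14-SCF Tg samples and 1.54 to 3.97 in WT samples. WT replicate 1 was lowest and WT replicate 2 highest of the WT samples in this sum, as in Cd74, while all K14-SCF Tg sums lay above all WT sums. Without Arhgdib, the brightest marker, left out after its values were seen, the sums were 1.07 to 2.17 in K14-SCF Tg samples and 0.543 to 1.12 in WT samples, with overlap. Of the 10, 8 had positive fold changes, the groups did not overlap for Tyrobp and Arhgdib, and 0 were called. Of 11 Langerhans and dendritic cell markers 9 were tested, with a summed level of 5.77 to 7.89 in K14-SCF Tg samples and 5.11 to 7.59 in WT samples. Of 12 macrophage markers 11 were tested, with Mrc1 on no array above background, and the sums were 192.7 to 204.7 in K14-SCF Tg samples and 164.4 to 212.5 in WT samples. Of 12 T, natural killer and B cell markers 10 were tested. Their sums were 5.45 to 6.001 in K14-SCF Tg samples and 4.77 to 6.35 in WT samples. Brighter probes dominate such sums. Mfge8 was the brightest Langerhans and dendritic cell marker, with a mean of 2.48 over the 6 arrays. Itgam was the brightest macrophage marker, with a mean of 7.48. The sums of these lists thus say little about their other markers. The part of other cells in the class II values was not tested.

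Fibroblast markers, of cells the sort should leave out, were also examined. Their summed level was 9.99 to 23.1 in K14-SCF Tg samples and 29.2 to 74.6 in WT samples, over 10 markers with a median fold change of -1.66. Of the 10, 2 had a positive and 8 a negative fold change. At an unadjusted limma p under 0.05, 5 of the 10 were lower, against 2.56% of all genes, and 0 were called. The groups did not overlap for 4 of the 10, all lower in K14-SCF Tg, against 5.41% of all genes. Col1a1 and Col1a2, chains of type I collagen, had fold changes of -1.83 and -1.87. Keratinocyte marker sums were 134.0 to 143.5 in K14-SCF Tg samples and 115.8 to 146.8 in WT samples, with overlap. In the same order, endothelial sums were 2.84 to 3.49 and 2.38 to 5.73, and mast cell sums 0.59 to 0.80 and 0.32 to 0.92. Schwann cell sums were 85.35 to 85.57 in K14-SCF Tg samples and 69.27 to 85.2 in WT samples, without overlap. Brighter probes dominate these sums too. Trp63, the brightest keratinocyte marker, had a mean of 6.98 over the 6 arrays, with Krt14 next at 1.65. The keratinocyte sums thus say little about the other markers of that list. WT replicate 1 had the highest fibroblast sum of the WT samples, 74.6, and the lowest Cd74 level of the WT samples, -0.59. The part of fibroblasts in the fold changes of Erap1 and Cd74 was not tested.

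**Figure D4:**
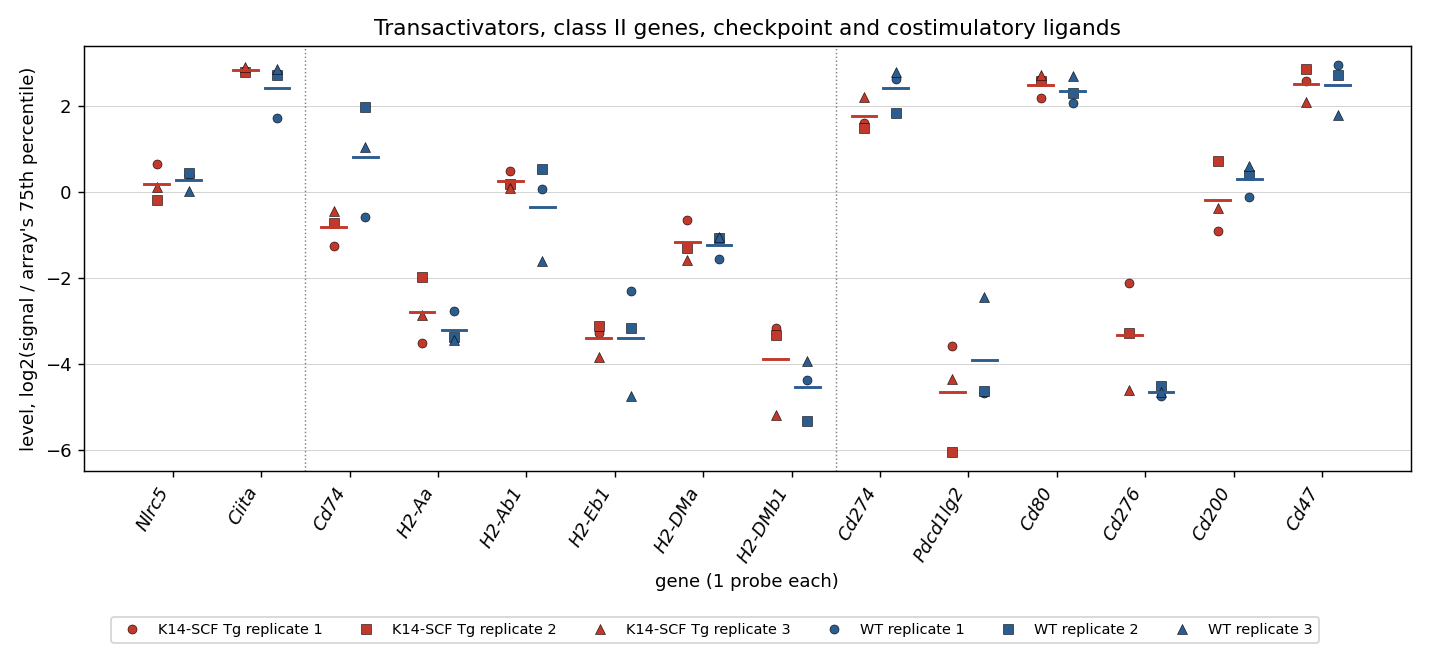
Levels of the transactivators (left), class II genes (middle) and checkpoint and costimulatory ligands (right), as log2 of signal over the array's 75th percentile (y axis). Points are samples, K14-SCF Tg in red left of WT in blue, and bars are means of 3. Cd74 in 2 WT samples and Cd276 in 2 K14-SCF Tg samples stand above the other genotype.

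Checkpoint and costimulatory ligands also showed no called difference. Cd274 encodes PD-L1, the ligand that inhibits T cells through PD-1. It was at 1.61, 1.49 and 2.20 in K14-SCF Tg samples and at 2.61, 1.83 and 2.78 in WT samples. The groups overlapped by 1 sample of each, and the fold change was -0.64 (SE 0.36, interval -1.53 to 0.24, adjusted p 0.946). Pdcd1lg2, the second PD-1 ligand, had a fold change of -0.74 (SE 0.87). Cd276, an inhibitory member of the B7 family, was at -2.13, -3.28 and -4.60 in K14-SCF Tg samples and at -4.76, -4.53 and -4.66 in WT samples. K14-SCF Tg replicates 1 and 2 lay above all WT samples and replicate 3 among them. Its fold change was 1.31 (SE 0.62, interval -0.22 to 2.84, adjusted p 0.932), with 0.71 without K14-SCF Tg replicate 1 and 1.94 without replicate 3.

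Cd80, a costimulatory ligand of CD28 and CTLA-4, had a fold change of 0.13 (SE 0.28), and of 0.88 at its second probe. Its partner Cd86 gave no signal above background. Cd200, which restrains myeloid cells, was at -0.91, 0.73 and -0.38 in K14-SCF Tg samples and at -0.13, 0.39 and 0.60 in WT samples, with a fold change of -0.48 (SE 0.48). Cd47, the signal against phagocytosis, had a fold change of 0.03 (SE 0.40) and -0.11 at its second probe. Over the 6 tested ligands the median fold change was -0.23, with 3 positive and 3 negative. It was -0.062 without K14-SCF Tg replicate 1, and 0.026 without the filter, which adds Cd86.

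Another 125 genes of the same pathways were examined, of which 106 were tested, with 0 called. At an unadjusted limma p under 0.05, 6 were higher (5.66%) and 5 lower (4.72%), against 2.85% and 2.56% of all genes. The groups did not overlap for 6 in each direction (5.66%), against 5.13% and 5.41% of all genes. Among other class I genes, H2-Q1 was at -3.11, -2.55 and -2.14 in K14-SCF Tg samples and at -4.55, -4.97 and -6.10 in WT samples. It separated the genotypes, with a fold change of 2.61 (SE 0.49, adjusted p 0.532), and was well above background in 3 of 3 K14-SCF Tg samples and 2 of 3 WT samples. Fcgrt, the neonatal Fc receptor, had a fold change of 0.88 and Cd1d1, which presents lipids, of -0.87.

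Of the other processing genes 19 were tested, with fold changes between -0.68 and 1.40. Sec61b, a subunit of the translocon, and Uggt1, a folding sensor for glycoproteins, had fold changes of -0.68 and -0.55, with the groups apart. Tapbpl, a tapasin relative that edits peptides, had a fold change of 1.40 with the groups apart and an adjusted p of 0.918. In the class II pathway H2-Oa, a partner chain that restrains H2-DM and was well above background in 2 of 3 WT samples, had a fold change of 2.71, and Lgmn, a lysosomal protease, of -0.58. Ifi30, a lysosomal thiol reductase, had a fold change of 0.49, and none of these 6 was called.

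Genes that control class I had fold changes of both signs. Ezh2, a Polycomb methyltransferase, had a fold change of -0.64 with the groups apart, and Irf8, an interferon regulatory factor, of 1.29. Over the 20 tested genes of this list 8 were positive and 12 negative, with a median of -0.10.

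Of the other inhibitory and privilege genes, 25 of 28 were tested. Il10, an inhibitory cytokine, was at -3.22, -2.78 and -2.79 in K14-SCF Tg samples and at -8.01, -6.14 and -7.78 in WT samples. It was well above background in 3 of 3 K14-SCF Tg samples and in 1 of 3 WT samples. The estimate of 4.38 (SE 0.54, adjusted p 0.416) thus rests on WT signals mostly near background. Cd46, a complement regulator well above background in 2 of 3 K14-SCF Tg samples, had a fold change of -2.06, and Tnfrsf14, the receptor HVEM, of 0.67. Vtcn1 and Ido1 were on no array above background. The remaining costimulatory ligands Vcam1, Tnfsf9 and Cd70 had fold changes of -0.67, -0.58 and -0.85, with adjusted p of 0.961 or above. The ligands of natural killer cell receptors Clec2d, Raet1e and H60c had fold changes of -0.64, 0.23 and 0.74.

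The spread between replicates differed among the roles. The median SD between samples of a genotype was 0.11 for class I molecules, 0.33 for processing and loading genes and 0.39 for the transactivators. It was 0.58 for the ligands and 0.86 for class II genes, against 0.49 over all genes 0.31 over the brightest 25% of genes and 0.65 over the dimmest 25%. Of the 32 members, 18 were among the brightest 25% of genes. Of all 32 intervals, 14, or 43.8%, lay within 1 log2 unit of 0. For the other 18 genes the interval reached beyond 1 log2 unit, so 3 samples per genotype do not bound their differences that closely.

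**Figure D5:**
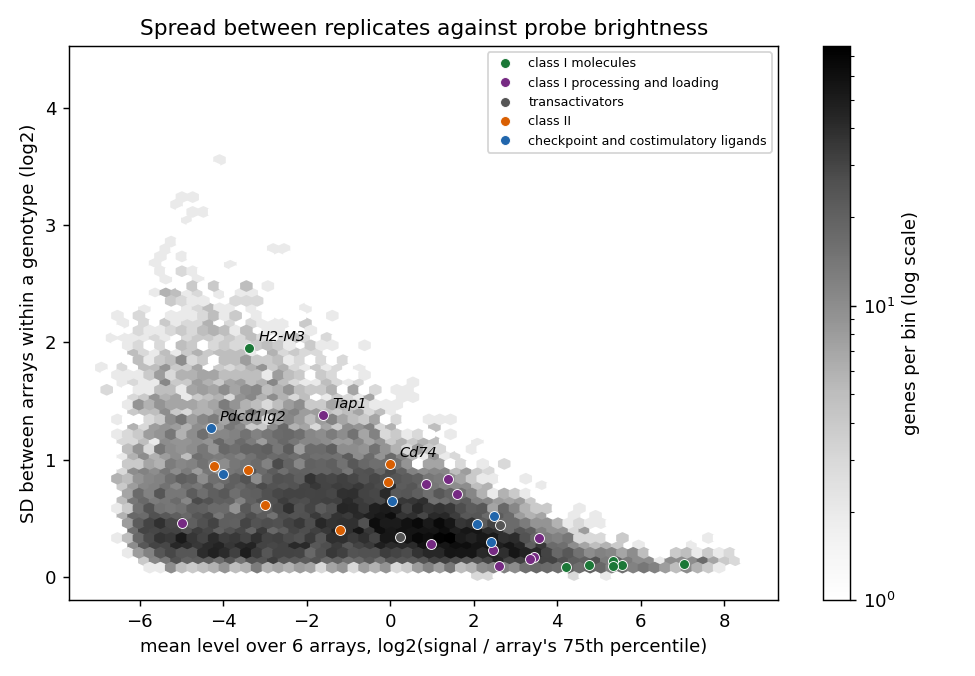
SD between samples within a genotype (y axis, log2) against mean level over 6 arrays (x axis, log2 of signal over the array's 75th percentile). Coloured points are the 32 members by role and grey bins all 18368 genes tested. Class I molecules other than H2-M3 sit at the bright end with SDs near 0.1, while H2-M3, Tap1, Pdcd1lg2 and Cd74 are labelled as widely spread.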

How the data were processed

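Total RNA of 6 sorted samples, 3 K14-SCF Tg and 3 WT, was labelled with Cy3, per the labels' protocols. The deposited scanner files hold processed signal intensity, median signal intensity and background intensity per spot, with flags for spots well above background. They came from Agilent Feature Extraction 10.7.1.1, per the submitters' processing notes. The deposited value table holds the ratio of the processed signal to a constant per array, 1404.6 to 1678.0, which is 99.5 to 99.6% of the 75th percentile. This matched 99.9% of values within 0.1% plus 0.001, so the scale and direction are known and genes were not centred. No source used here defines that constant. The deposited table's column medians were 0.184, 0.188 and 0.176 for K14-SCF Tg and 0.170, 0.177 and 0.169 for WT replicates 1 to 3.

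Spots of a probe were averaged without outlier spots, divided by the array's 75th percentile and put on the log2 scale. A probe was called well above background on an array where at least 0.5 of its spots carried that flag. The 47709 probes well above background on at least 3 arrays were fitted with limma 3.58.1 (R 4.3.3), lmFit and eBayes, 2-sided, without covariates. P-values were adjusted by Benjamini-Hochberg over all these probes, with a threshold of 0.05. Residual degrees of freedom were 4 and prior degrees of freedom 1.91. The brightest tested probe stood for each of 18368 genes. Of 55681 probes, 29786 carried a RefSeq accession and 28331 matched 1 gene in RefSeq's gene table. The fit was tested on simulated data. Planned normexp correction on mean signals was run on median signals, because the files hold no mean signals.

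The members and lists were chosen with earlier results of these data known. Every member is named. From each pathway list up to 3 genes with the smallest p were named, and from marker lists up to 2 with the highest mean, of which some are printed and some are not reported here. Hpse, Tyrobp, Arhgdib, Ednrb, Kit and the undetected genes were named after their values were seen. Replicate numbers were not used to pair the samples. Deviations from group means correlated at 0.019, 0.052 and 0.131 for the 3 numbers, and at -0.098 to 0.055 between unlike numbers. The highest value, 0.131, was for replicate 3, whose arrays both lay in the lower slide row. Alternatives covered normalization, values, background correction, filter, slide, slide row, replicate block, variance model, probe choice and each array left out.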

Additional observations from a re-analysis of the deposited data

How the results depend on the processing

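Under all 17 alternatives 0 of the members tested were called in either direction. Over all genes 1 was called in the main setting, with quantile normalization, with the deposited values and without the filter, and 0 in the other 14. Of 542 fold changes recomputed, 503 kept their sign and 39 turned, in 15 of the 32 members, and 17 members never turned. No scaling moved the median of all genes by over 0.1. With the slide as a block, H2-K1 became -0.015, Psmb8 -0.42, H2-Eb1 0.54, H2-DMa -0.11 and Cd80 -0.0097, and the class II median became 0.59. Within slide row 1, H2-M3 became 1.098, Tapbp 0.097, Psmb10 0.27 and Cd47 -0.11, and the class I median 0.22. Tap1 kept its sign there and became 2.07. Quantile normalization gave Calr 0.0022 and Canx 0.062. Normexp with quantile normalization gave Canx 0.019 and H2-M3 0.027, and the mean of both probes gave Cd47 -0.041. The cause of these turns was not tested. Leaving out 1 array at a time gave -0.26 to -0.025 for the processing median and 0.056 to 0.59 for the class II median, and without the filter the ligand median was 0.026. For the ligand median it gave -0.28 to -0.062. The same step gave -0.015 to 0.16 for H2-K1, -0.12 to 0.026 for H2-Q4, -1.06 to 1.12 for H2-M3 and -0.0060 to 1.51 for Tap1. It gave -0.17 to 0.082 for Tapbp, -0.42 to 0.47 for Psmb8, -0.80 to 0.30 for Psmb10, -0.14 to 0.034 for Calr and -0.051 to 0.050 for Canx. For Nlrc5 it gave -0.31 to 0.10, for H2-Ab1 -0.042 to 1.03, for H2-Eb1 -0.67 to 0.54, for H2-DMa -0.20 to 0.27, for Cd80 -0.0097 to 0.30 and for Cd47 -0.32 to 0.26. With the replicate number as a block, 0 members were called, the lowest adjusted p was 0.732 for Erap1, whose fold change stayed at -1.91, and no call changed. Whether the numbers pair the samples was not settled. Erap1 and H2-M3 could not be tested with the filter on all 6 arrays. Dim probes such as Erap1, H2-M3 and Cd276 have signals near the background, which limits their precision.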
